A study of Mus musculus with 3 samples.

Results

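The genes described here are 7 members of activin and TGF-beta signalling: Inhba, Fstl1, Tgfb1, Tgfbi, Tgfbr1, Tgfbr2 and Smad7. They were chosen by symbol, and each symbol names 1 of the 55357 features in the count matrices. The choice was made with their levels in these cells known, so the levels are a description. Wild type C57BL/6 mice received 50 µL into the trachea, and the lungs were taken 24 h later. The 3 groups were PBS, LPS (bacterial lipopolysaccharide) at 4 mg/kg, and that LPS dose with Reg3g, a C-type lectin that cells secrete, at 6 µg. Live lung cells were sorted for CD45 and F4/80 with CD11b or CD11c, and cells with Ly6G, a neutrophil marker, were left out. Cells of 3 mice were pooled into 1 droplet library per group. Without replicate libraries, groups are compared by their values alone and no p-value is given.

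Activins and TGF-beta belong to 1 family of secreted dimers that bind paired type I and type II receptor kinases on the cell surface. The receptors phosphorylate Smad proteins, which enter the nucleus and switch target genes. Inhba encodes the beta A subunit, which forms activin A as a homodimer. Fstl1 encodes a secreted glycoprotein with a follistatin-like domain, made chiefly by stromal cells. Tgfb1 encodes the main TGF-beta ligand of leukocytes, Tgfbr1 and Tgfbr2 its type I and type II receptors, Tgfbi a matrix protein named for its induction by TGF-beta, and Smad7 an inhibitory Smad that blocks the receptors. In the lung, TGF-beta signalling is needed for alveolar macrophages to develop and persist.

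In the GRCm38 (mm10) annotation GENCODE M21, Inhba spans chr13:16011851-16031621 on the plus strand, Fstl1 chr16:37776873-37836514 (plus), Tgfb1 chr7:25687002-25705077 (plus) and Tgfbi chr13:56609523-56639562 (plus). Tgfbr1 spans chr4:47353222-47414931 (plus) and Tgfbr2 chr9:116084293-116175360 (minus). Inhba is overlapped on the other strand by B230303A05Rik and Gm48444. The sources used here do not give whether counting used the strand. In alveolar-macrophage-like cells B230303A05Rik had 0, 21 and 25 UMIs and Gm48444 1, 0 and 5 with PBS, LPS and LPS with Reg3g, beside 85, 8267 and 7863 for Inhba.

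Promoter sequence was available for the 6 members other than Smad7 in the RefSeq table (GRCm38.p6). It is shown for Inhba and Fstl1, the pair that was nearly silent with PBS and abundant with LPS. It is also shown for Tgfbr2, which had a larger difference the other way than Tgfbr1. Each run reads 5′ to 3′ on the gene's strand, with matches to the searched motifs in capitals. The runs end just before the RefSeq start for Inhba and Tgfbr2 and before the first GENCODE start, which lies further upstream, for Fstl1.
Inhba, chr13:16011601-16011850: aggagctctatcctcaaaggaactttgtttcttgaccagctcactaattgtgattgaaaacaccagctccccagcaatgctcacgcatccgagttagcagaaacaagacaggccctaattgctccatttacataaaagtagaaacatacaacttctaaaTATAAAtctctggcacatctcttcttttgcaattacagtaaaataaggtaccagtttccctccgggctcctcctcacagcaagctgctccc
Fstl1, chr16:37776805-37776872: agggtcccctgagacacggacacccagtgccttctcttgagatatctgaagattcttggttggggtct
Tgfbr2, chr9:116175364-116175613 (minus strand): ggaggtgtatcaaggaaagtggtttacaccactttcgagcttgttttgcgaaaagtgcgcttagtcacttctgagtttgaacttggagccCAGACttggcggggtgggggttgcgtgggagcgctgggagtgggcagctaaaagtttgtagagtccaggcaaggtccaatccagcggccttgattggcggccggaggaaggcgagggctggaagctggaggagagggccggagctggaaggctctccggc
The motifs were searched on both strands of the 250 bases before the RefSeq start: AP-1 (TGANTCA), the cyclic AMP element (TGACGTCA), the paired Smad site (GTCTAGAC), the Smad box (CAGAC), the GC box (GGGCGG), the TATA box (TATAAA) and NF-kB by its consensus. The Smad box letters are not part of the paired Smad site, and no printed match overlaps another. The Inhba window holds a TATA box that begins 91 bases before the start, as 12.4% of the 32851 promoters in the table hold one. The Tgfbr2 window holds 1 Smad box, a motif present in 42.2% of promoters. Smad boxes also lie in the Tgfbi window, at 239 and 85 bases before the start. Another lies in the second of the 2 Tgfbr1 windows, at 203 bases before its start. The 250-base Fstl1 window holds 2 GC boxes, present in 32.7% of promoters, at 46 and 22 bases before the RefSeq start. These lie past the first GENCODE start and are not printed. The Tgfb1 window holds 5 GC boxes and an NF-kB match, the latter present in 7.25% of promoters. GC boxes also lie in the Tgfbi window, at 124 bases, and in the first Tgfbr1 window, at 133 and 95 bases. AP-1 and cyclic AMP element letters, present in 6.75% and 1.55% of promoters, are not in any of these windows. These matches describe letters and not binding. The windows also differ in composition, with 43.2% G and C for Inhba, 68% for Fstl1 and 58.4% for Tgfbr2 against a median of 52.4% over all promoters.

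Values in threes are given in the order PBS, LPS, LPS with Reg3g. The libraries held 8475, 15015 and 10213 barcodes, of which 7860, 13015 and 9281 were kept, with medians of 5923.5, 4216 and 5459 UMIs per cell. Between 28 and 37 barcodes were shared by any pair of libraries. Cells fell into 24 clusters, built without the 7 genes and their pathway genes among the variable genes, and were called by marker lists. Alveolar-macrophage-like cells numbered 3572, 5028 and 4099 and monocyte-like cells 2258, 4262 and 3245. A cluster led by Arg1 held 6, 1786 and 954 cells. It was kept under its leading gene because its scores for interstitial macrophage and monocyte markers lay within 0.5 of each other. The marker levels themselves were not alike. With LPS, C1qa was at 516 CPM there, 8065 in interstitial-macrophage-like and 477 in monocyte-like cells. Plac8, a monocyte marker, was at 2089, 328 and 4427 CPM in the same order. All 15 alveolar macrophage markers were found in the alveolar class in every library, but at different levels. Marco (296, 1091 and 965 CPM), Car4, Ctsk, Atp6v0d2 and, slightly, Itgax were higher with LPS than with PBS. The other markers were lower, among them Chil3 at 6891, 4863 and 5021 CPM and Siglecf at 124, 11.9 and 20.2 CPM. Fabp1 was at 1282.5, 115.3 and 218.5 CPM and Ear2 at 3340.1, 728.0 and 811.1 CPM. Marco was not confined to this class, with 627.8 CPM in interstitial-macrophage-like cells with LPS. CPM is a gene's UMIs per 1000000 UMIs of the class and library. UMIs were counted at transcript 3′ ends, and levels are compared within a gene only. Intervals are 95% intervals for counting error alone, and do not cover differences between cells, mice or preparations.

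**Figure D1:**
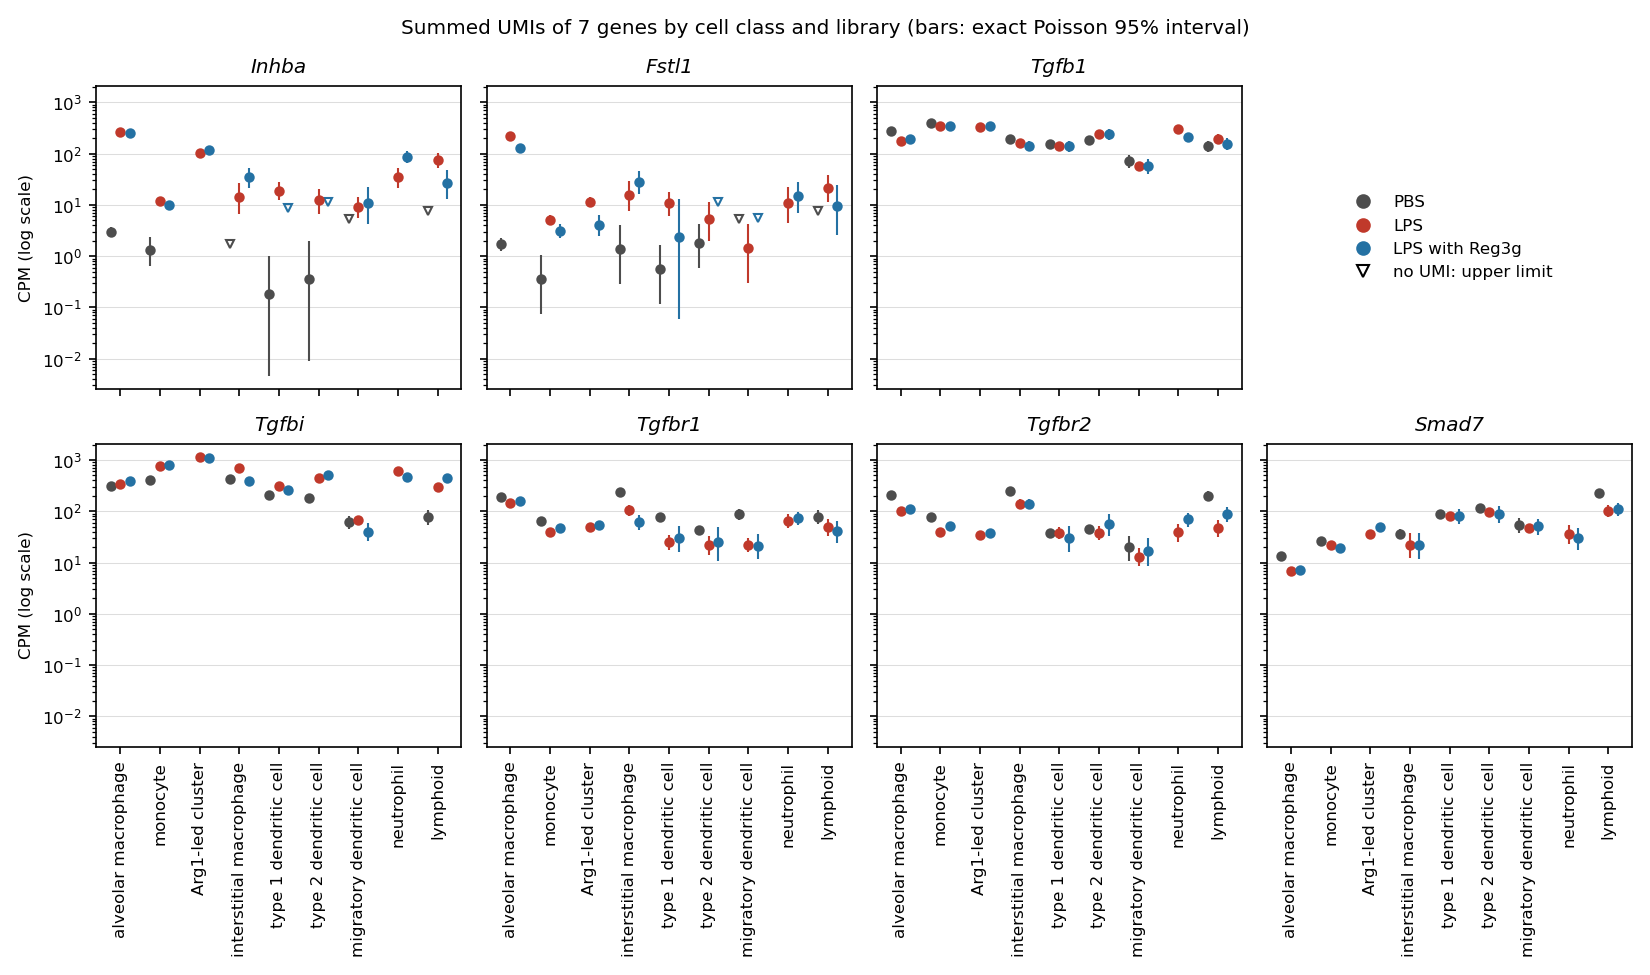
Level of each of the 7 genes in CPM (log axis) by cell class, for groups of at least 50 cells (structural-like cells are not drawn); points are sums over 1 library, bars exact Poisson intervals, open triangles the upper limit where no UMI was found. In the alveolar class Inhba and Fstl1 stand at 3.01 and 1.73 CPM for PBS and at 266.3 and 218.3 CPM for LPS, while the other 5 genes are found in every class and library shown.

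Among the ligands, Inhba was nearly absent from the PBS library and was found mainly in alveolar-macrophage-like cells of both LPS libraries. Its level in that class was 3.01 CPM (2.40 to 3.72, 85 UMIs) with PBS. It was 266.3 CPM (260.6 to 272.1, 8267 UMIs) with LPS and 248.2 CPM (242.8 to 253.8, 7863 UMIs) with LPS and Reg3g. The LPS level was 88.5-fold the PBS level, a log2 ratio of 6.47 (6.16 to 6.79). The LPS libraries do not overlap the PBS library, and they lie close to each other, with a log2 ratio of LPS with Reg3g over LPS of -0.10 (-0.15 to -0.06).

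The alveolar class held 84.9% of all Inhba UMIs of the kept cells with LPS and 85.4% when Reg3g was given too. The Arg1-led cluster came next among the classes of at least 50 cells, at 101.6 CPM (94.3 to 109.2) with LPS and 117.8 CPM (108.2 to 128.1) with Reg3g. Lymphoid-like cells of the LPS library followed at 74.5 CPM (53.5 to 101.1), an interval that overlaps that of the Arg1-led cluster. Of their 41 UMIs, 32 lay in 3 cells with at least 7 each. These 3 cells carried 3 to 124 UMIs of alveolar macrophage markers, beside a median of 1 in all lymphoid-like cells. Neutrophil-like cells were at 34.3 and 86.8 CPM, interstitial-macrophage-like cells at 14.3 and 35.0 CPM, and monocyte-like cells at 12.2 and 10.1 CPM in the LPS libraries without and with Reg3g. The 48 structural-like cells of the LPS library were at 164.0 CPM.

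Because depth differs between classes and libraries, each cell was thinned to 2000 UMIs before the share with an Inhba UMI was counted. Median depth before thinning was 7662, 6045 and 7562 UMIs in alveolar-macrophage-like cells and 2163.5, 1900 and 2261.5 in lymphoid-like cells, of which 75, 93 and 52 were too shallow to enter. Inhba was found in 0.227% (0.0979 to 0.446) of alveolar-macrophage-like cells in PBS, 27.8% (26.6 to 29.1) in LPS and 24.6% (23.3 to 26.0) in LPS with Reg3g. Without thinning these shares were 1.34%, 45.8% and 44.4%. Lymphoid-like cells were taken as the comparison, and whether they lack the gene was not tested. Their thinned shares were 0% of 91 cells (up to 3.97%), 8.33% (3.42 to 16.4) and 0% of 64 cells (up to 5.60%). The monocyte-like share was 1.87% in LPS, below the lymphoid-like interval, and 1.48% in LPS with Reg3g, under the upper limit there. Before thinning, lymphoid-like cells with an Inhba UMI had a median depth of 6459.5 UMIs in LPS, against 1900 for the class. With Reg3g these medians were 10906.5 and 2261.5. The lymphoid-like share is therefore no clean level of free RNA, and whether monocyte-like cells lie above free RNA was not tested. The Arg1-led share of 12.6% (10.9 to 14.5) with LPS is not separated from the lymphoid-like share of that library, and the share of 12.6% (10.4 to 15.1) with Reg3g lies above it.

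Tgfb1, the leukocyte TGF-beta ligand, ran the other way in alveolar-macrophage-like cells and had a flatter profile across classes. It was at 279.1 CPM (273.0 to 285.3) with PBS, 174.5 CPM (169.9 to 179.3) with LPS and 193.3 CPM (188.5 to 198.2) with LPS and Reg3g. The PBS level was 1.60-fold the LPS level, a log2 ratio of -0.68 (-0.73 to -0.63). Over all 7840 genes measured in this class the median log2 ratio of LPS over PBS was -0.25, and with scaling by the median of ratios Tgfb1 was at -0.42. With LPS and Reg3g it was 0.15 (0.09 to 0.20) above LPS, beside a median of 0.04 over 7161 genes.

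Monocyte-like cells held Tgfb1 at 390.6, 340.7 and 350.5 CPM, and the Arg1-led cluster at 334.4 and 350.1 in the LPS libraries. The Arg1-led and monocyte-like levels do not differ beyond their counting intervals in either LPS library. Alveolar-macrophage-like cells held 59.8% of all Tgfb1 UMIs with PBS, 37.4% with LPS and 44.8% with Reg3g. The lowest class in each library was migratory dendritic-cell-like, at 71.4, 56.7 and 56.8 CPM. Lymphoid-like cells were at 141.4, 196.3 and 155.1 CPM; lymphocytes make this ligand, so their share is no measure of free RNA. Platelets carry it too, and the 6 platelet markers summed to 0.779, 0.451 and 0.253 CPM in the alveolar class.

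The secreted protein gene Fstl1 had the largest ratio of the set and was the only 1 of the 7 with a log2 ratio beyond 0.5 in size between the LPS libraries of the alveolar class. It was at 1.73 CPM (1.28 to 2.29, 49 UMIs) with PBS and at 218.3 CPM (213.1 to 223.6, 6777 UMIs) with LPS. With LPS and Reg3g it was at 128.6 CPM (124.7 to 132.6, 4073 UMIs). LPS was 126-fold PBS, a log2 ratio of 6.98 (6.57 to 7.41), and LPS with Reg3g was 1.70-fold below LPS, a log2 ratio of -0.76 (-0.82 to -0.71). All 3 libraries are separated beyond counting error, with LPS highest and LPS with Reg3g between.

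Fstl1 was also the most restricted of the 7 genes to the alveolar class after LPS. That class held 91.9% of its UMIs with LPS and 89.5% with Reg3g, against 43.8% of only 112 UMIs with PBS. Another 43.8% of the PBS UMIs lay in 52 structural-like cells (epithelial, endothelial and fibroblast markers), at 156.6 CPM. Structural-like cells were at 218.7 CPM in 48 cells with LPS and 219.9 CPM in 21 cells with Reg3g, with intervals that overlap the PBS value. The Arg1-led cluster, in contrast to its Inhba, was at 11.6 CPM (9.27 to 14.4) and 4.09 CPM (2.46 to 6.38) in the LPS libraries. Monocyte-like cells were at 0.354, 5.08 and 3.13 CPM.

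After thinning, Fstl1 was found in 0.227% (0.0979 to 0.446) of alveolar-macrophage-like cells in PBS, 19.2% (18.1 to 20.3) in LPS and 12.6% (11.6 to 13.6) in LPS with Reg3g, and without thinning in 0.644%, 28.1% and 22.7%. The lymphoid-like shares were 0% (up to 3.97%), 2.38% (0.290 to 8.34) and 1.56% (0.0396 to 8.40). Shares in monocyte-like cells (0.873% and 0.684%) and in the Arg1-led cluster (1.49% and 0.764%) in the LPS libraries lie within these intervals. Because fibroblasts make Fstl1, 10 fibroblast markers were summed in the alveolar class. They came to 6.97, 9.44 and 8.40 CPM, Lum was at 0 in all 3 libraries, and Pdgfra was also at 0 with PBS. Dcn, the decorin gene on the same list, differed in the direction of Fstl1 at a lower level, with 0.177 CPM (5 UMIs) in PBS, 4.25 CPM (132 UMIs) in LPS and 3.31 CPM (105 UMIs) in LPS with Reg3g. Its log2 ratio of LPS over PBS was 4.59 (3.33 to 6.23). The rest of the list did not follow Dcn. With Dcn left out, the summed level of the other markers was lower in both LPS libraries than with PBS. Without the cells that carried any fibroblast marker UMI, the Fstl1 log2 ratios were 7.07 for LPS over PBS and -0.78 for LPS with Reg3g over LPS.

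Tgfbi, the matrix protein gene, was highest in the Arg1-led cluster and, among the named classes, in monocyte-like cells of the LPS libraries. In alveolar-macrophage-like cells it was at 314.6 CPM (308.1 to 321.3) with PBS, 348.9 CPM (342.4 to 355.5) with LPS and 384.5 CPM (377.7 to 391.4) with Reg3g. These levels lie within 1.5-fold of each other, with log2 ratios of 0.15 (0.11 to 0.19) and 0.14 (0.10 to 0.18). In monocyte-like cells it was at 414.4 CPM (400.8 to 428.4), 768.3 CPM (754.7 to 782.1) and 788.5 CPM (774.1 to 803.2). LPS was 1.85-fold PBS there, a log2 ratio of 0.89 (0.84 to 0.95).

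The highest Tgfbi level of any class was in the Arg1-led cluster, at 1124 CPM (1100 to 1149) with LPS and 1080 CPM (1050 to 1110) with Reg3g. Interstitial-macrophage-like cells were at 429.7, 705.9 and 391.3 CPM, with LPS alone highest. Within monocyte-like cells the clusters differed. Clusters with classical markers were at 497.6 CPM in PBS (cluster 7), 871.9 in LPS and 983.6 in LPS with Reg3g (cluster 5). Of the clusters with nonclassical markers, cluster 3 was at 205.8, 322.1 and 382.3 CPM in 751, 156 and 187 cells, a log2 ratio of LPS over PBS of 0.65 (0.28 to 1.00). Cluster 4, which had 4 cells with PBS, was at 644.5 and 624.2 CPM in the LPS libraries. Different clusters hold most of the monocyte-like cells of PBS and of LPS.

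Tgfbi was also found in lymphoid-like cells, more so in the LPS libraries. They were at 76.9, 292.7 and 446.0 CPM, and 12.1%, 31.0% and 37.5% of them had a UMI after thinning. Alveolar-macrophage-like shares of 44.5%, 45.6% and 50.0%, monocyte-like shares of 51.7%, 74.9% and 74.0% and Arg1-led shares of 79.2% and 74.8% were higher in value than the lymphoid-like shares of their libraries. The lymphoid-like shares rest on 91, 84 and 64 cells, and separation beyond counting error is not claimed here. Type 1 dendritic-cell-like shares in the LPS libraries, 34.9% and 36.8%, were close to the lymphoid-like ones. Migratory dendritic-cell-like shares of 5.77%, 9.43% and 5.19% lie below them, so the lymphoid-like share is not one level of free RNA common to all classes.

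The TGF-beta receptor genes were high in alveolar- and interstitial-macrophage-like cells, and Tgfbr2 differed more between LPS and PBS in the alveolar class than Tgfbr1. Tgfbr2, the ligand-binding type II receptor, was at 208.4 CPM (203.1 to 213.8) in alveolar-macrophage-like cells with PBS, 103.3 CPM (99.8 to 107.0) with LPS and 110.5 CPM (106.9 to 114.2) with LPS and Reg3g. The log2 ratio of LPS over PBS was -1.01 (-1.07 to -0.95), and -0.76 with median-of-ratios scaling. The ratio of LPS with Reg3g over LPS was 0.10 (0.03 to 0.17). After thinning, 33.9%, 18.3% and 19.8% of these cells had a Tgfbr2 UMI.

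Interstitial-macrophage-like cells had a similar profile, with Tgfbr2 at 254.1 CPM (233.2 to 276.4), 140.2 CPM (112.5 to 172.8) and 139.9 CPM (111.6 to 173.2). Monocyte-like cells were lower, at 76.5, 39.4 and 51.9 CPM, with a log2 ratio of LPS over PBS of -0.96 (-1.12 to -0.80). Monocyte-like cells with Reg3g lay 0.40 (0.24 to 0.55) above LPS. Lymphoid-like cells were at 199.6 CPM (161.6 to 243.7) with PBS, which does not differ from the alveolar class beyond counting error, and at 47.3 and 87.3 CPM in the LPS libraries. Type 1 dendritic-cell-like cells were at 38.3 CPM with PBS and with LPS and at 30.2 CPM with Reg3g.

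Tgfbr1, the signalling type I receptor, was at 188.0 CPM (182.9 to 193.1), 147.7 CPM (143.4 to 152.0) and 157.3 CPM (152.9 to 161.7) in alveolar-macrophage-like cells. Its log2 ratio of LPS over PBS, -0.35 (-0.41 to -0.29), lies near the median of all genes, and with median-of-ratios scaling it was -0.09 and with trimmed mean scaling -0.0089. Interstitial-macrophage-like cells were at 237.8, 105.2 and 61.6 CPM, with a log2 ratio of LPS over PBS of -1.18 (-1.57 to -0.80). Monocyte-like cells were at 63.8, 40.2 and 48.1 CPM. Migratory dendritic-cell-like cells were at 87.1 CPM in PBS against 22.3 CPM in LPS, a ratio of -1.97 (-2.55 to -1.39) over 61 and 46 UMIs. Alveolar-macrophage-like cells held 74.8% to 78.1% of all Tgfbr1 UMIs and 71.3% to 77.1% of all Tgfbr2 UMIs in the 3 libraries.

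Smad7, the inhibitory Smad, was scarce in the alveolar class and higher in lymphoid-like and dendritic-cell-like cells. Alveolar-macrophage-like cells were at 13.6 CPM (12.2 to 15.0, 383 UMIs) with PBS, 6.80 CPM (5.91 to 7.78, 211 UMIs) with LPS and 7.23 CPM (6.32 to 8.23, 229 UMIs) with Reg3g. The log2 ratio of LPS over PBS was -0.996 (-1.25 to -0.75), just short of 2-fold, and -0.74 with median-of-ratios scaling. With PBS the order was lymphoid-like at 228.7 CPM (187.9 to 275.6), structural-like at 175.8 CPM (132.4 to 228.8), type 2 dendritic-cell-like at 117.5 CPM (105.2 to 131.0), type 1 at 87.1 CPM (79.4 to 95.3), migratory at 54.2 CPM (38.4 to 74.4), interstitial-macrophage-like at 36.4 CPM (28.8 to 45.5) and monocyte-like at 26.3 CPM (23.0 to 30.0). Lymphoid-like and structural-like cells do not differ beyond their intervals, nor do migratory and interstitial cells, nor interstitial and monocyte-like cells. In the Arg1-led cluster Smad7 was at 35.6 CPM (31.4 to 40.3) with LPS and 49.0 CPM (42.9 to 55.8) with Reg3g.

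Counted by a 2-fold threshold among genes that reached 10 CPM in either library, 2 of 7 members were higher with LPS than with PBS in alveolar-macrophage-like cells (Inhba and Fstl1), beside 5.75% of all 7840 genes measured. At the same threshold 1 of 7 was lower (Tgfbr2), beside 13.9% of all genes. Between LPS with Reg3g and LPS, 6 members reached 10 CPM and none passed 2-fold, beside 0.0419% of 7161 genes higher and 0.0698% lower. In monocyte-like cells 1 of 6 measured members was higher with LPS than with PBS (Inhba, on 192 and 11 UMIs), beside 9.3% of genes, and none was lower, beside 6.76%. Since the genes were chosen with these values known, the counts describe the set and are not read against the background. Both contrasts use the LPS library, so their ratios are not independent.

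**Figure D2:**
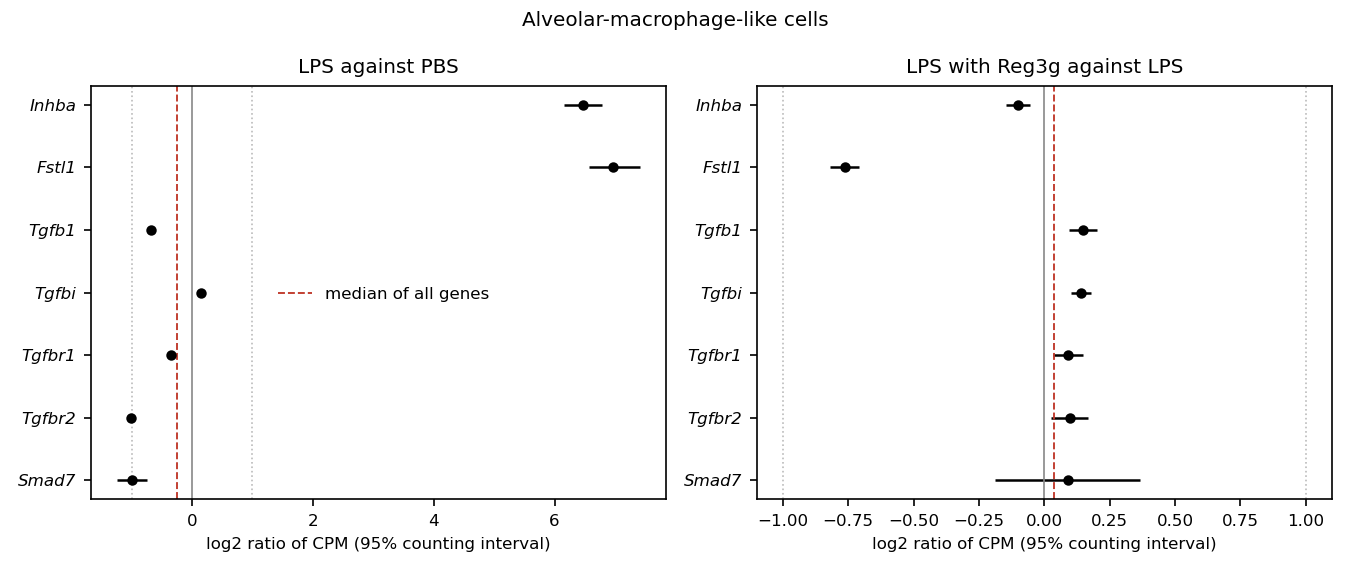
Log2 ratio of CPM in alveolar-macrophage-like cells for LPS against PBS (left) and LPS with Reg3g against LPS (right), 1 point per gene with its counting interval; dotted lines mark 2-fold and the dashed line the median of all genes. On the left Inhba (6.47) and Fstl1 (6.98) lie far above the other members, and on the right Fstl1 (-0.76) lies apart from the other 6, which sit between -0.10 and 0.15.

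Within the alveolar class, Inhba and Fstl1 were not spread evenly over the clusters. Different clusters hold most of the class with PBS and with LPS: cluster 2 held 3358 of its PBS cells, and clusters 19 to 22 held most of its cells in the LPS libraries. Neither gene was used to build the clusters. Cluster 19 (leading genes Cyp26b1, Inhba, Fstl1 and Cxcl3; 2108 and 1302 cells, none with PBS) had Inhba at 408.0 CPM (397.8 to 418.4) with LPS and 460.0 CPM (447.7 to 472.6) with Reg3g. Cluster 20 (led by Cxcl1 and Marco) was at 151.5 and 165.9 CPM, and cluster 22 (led by Car4 and Mt2) at 132.0 and 115.0 CPM. Cluster 21, led by Tnf and Ereg, was far lower, at 35.7 CPM (25.7 to 48.3) and 16.2 CPM (11.9 to 21.7).

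Fstl1 had the same low point and another order above it. Cluster 19 was at 319.0 CPM (310.0 to 328.3) with LPS and 210.2 CPM (201.9 to 218.8) with Reg3g, cluster 22 at 191.0 and 128.8 CPM, and cluster 20 at 106.6 and 78.6 CPM. Cluster 21 was at 7.65 CPM (3.50 to 14.5, 9 UMIs) and 6.36 CPM (3.77 to 10.1). Of the 6 clusters of the class, clusters 2 and 16 held over 50 cells in each library, and they differed. In cluster 2, which held 82 and 67 cells in the LPS libraries, Inhba was at 2.88, 12.8 and 3.07 CPM and Fstl1 at 1.73, 12.8 and 0 CPM. The log2 ratios of LPS over PBS there were 2.16 (0.24 to 3.57) for Inhba and 2.89 (0.96 to 4.35) for Fstl1, each on 4 UMIs with LPS. In cycling cells (cluster 16) Inhba was at 4.38, 245.1 and 185.2 CPM and Fstl1 at 0.487, 97.1 and 54.5 CPM with PBS, LPS and LPS with Reg3g. Their log2 ratios of LPS over PBS were 5.81 (4.84 to 6.96) for Inhba and 7.64 (5.11 to 12.97, with 1 UMI in PBS) for Fstl1.

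The 2 genes differed in how they sat between the LPS libraries cluster by cluster. Inhba was higher with Reg3g in cluster 19 (log2 ratio 0.17, 0.12 to 0.23) and cluster 20 (0.13, 0.02 to 0.24) and lower in cluster 22 (-0.20, -0.35 to -0.05), cluster 21 (-1.14, -1.77 to -0.50) and cluster 16 (-0.40, -0.74 to -0.07). Fstl1 was lower with Reg3g in clusters 19 (-0.60, -0.67 to -0.53), 20 (-0.44, -0.58 to -0.30), 22 (-0.57, -0.70 to -0.44) and 16 (-0.83, -1.42 to -0.25), and in cluster 21 its interval held 0 (-0.27, -1.50 to 1.07). Cluster 19 made up a smaller part of the class with Reg3g and cluster 21 a larger one (510 cells against 273). With the clusters weighted as in the LPS library, the ratio over the class was 0.12 for Inhba and -0.58 for Fstl1.

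**Figure D3:**
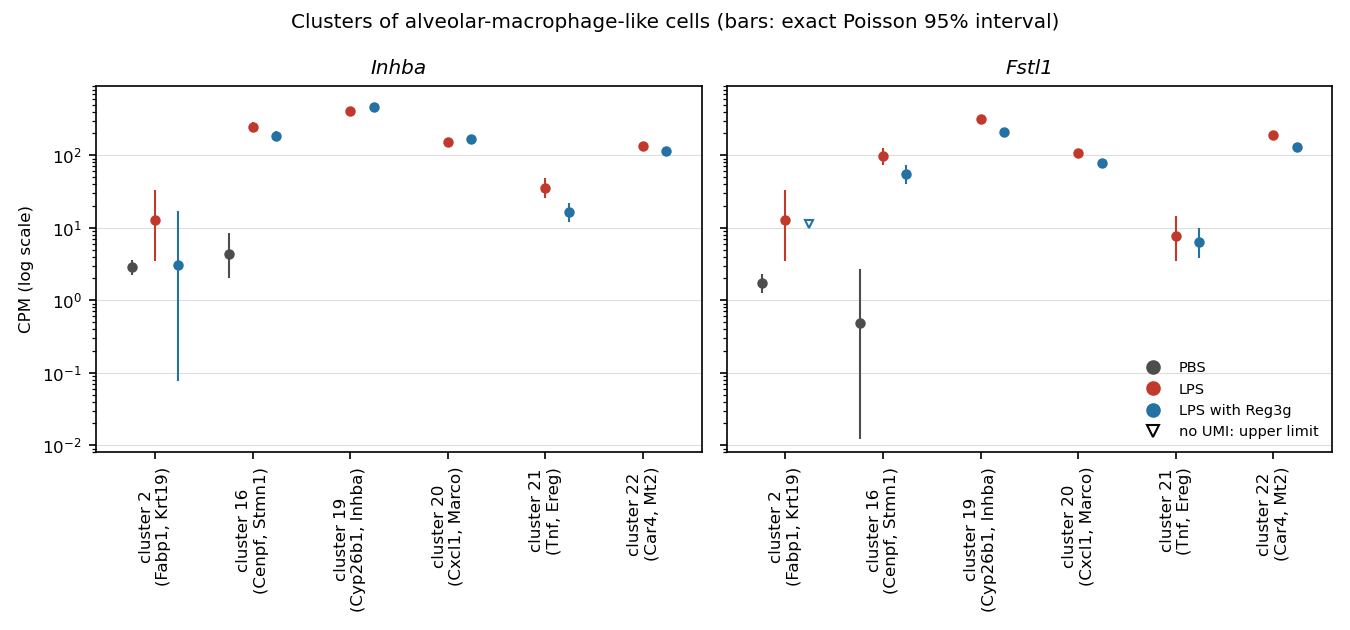
Inhba (left) and Fstl1 (right) in CPM (log axis) in the 6 alveolar-macrophage-like clusters, by library, with exact Poisson intervals; each cluster is labelled with 2 of its leading genes, and groups under 50 cells are not drawn. Cluster 19 is highest for both genes and cluster 21 lowest of the 4 clusters that hold most LPS cells (Inhba at 35.7 and 16.2 CPM).

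The other members varied less over these clusters. With LPS, Tgfb1 was between 166.4 and 227.8 CPM in clusters 19 to 22 and Tgfbr1 between 122.4 and 155.4 CPM. Tgfbr2 was lowest in cluster 19 (88.0 CPM, 83.3 to 92.9) and highest in cluster 21 (158.9 CPM, 137.0 to 183.4), the reverse of the Inhba order at its ends. Tgfbi followed the same direction, at 276.4 CPM (268.0 to 285.0) in cluster 19 and 513.4 CPM (473.2 to 556.0) in cluster 21. With Reg3g these ends were 87.2 and 184.7 CPM for Tgfbr2 and 316.2 and 455.2 CPM for Tgfbi.

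Counts per cell of Inhba and Fstl1 were more uneven over alveolar-macrophage-like cells than those of the other members, by the variance over the mean. After thinning, 72.2% of cells with LPS had no Inhba UMI, 16.2% had 1, 6.03% had 2 and 5.65% had 3 or more. The tenth of cells with the most Inhba held 62.7% of its UMIs with LPS and 67.8% with Reg3g. For Fstl1 the tenth with the most held 77.6% and 88.8%. That share depends on a gene's mean, and with LPS it was 60.1% for Tgfbr2. The Fstl1 mean was 0.421 UMIs per cell with LPS and 0.230 with Reg3g. Cells without a UMI were 70.9% for Tgfb1 and 81.7% for Tgfbr2 with LPS. Cells with 3 or more Fstl1 UMIs were 5.78% with LPS and 2.66% with Reg3g, while for Inhba these were 5.65% and 5.74%. The variance over the mean was 2.79 for Inhba and 2.93 for Fstl1 with LPS. There Tgfb1 was at 0.993, a value near that of random sampling, Tgfbr2 at 1.06 and Tgfbi at 1.33. The highest counts before thinning were 46 Inhba UMIs in a cell of the Arg1-led cluster with Reg3g and 34 Fstl1 UMIs in a cell of cluster 22 with Reg3g.

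**Figure D4:**
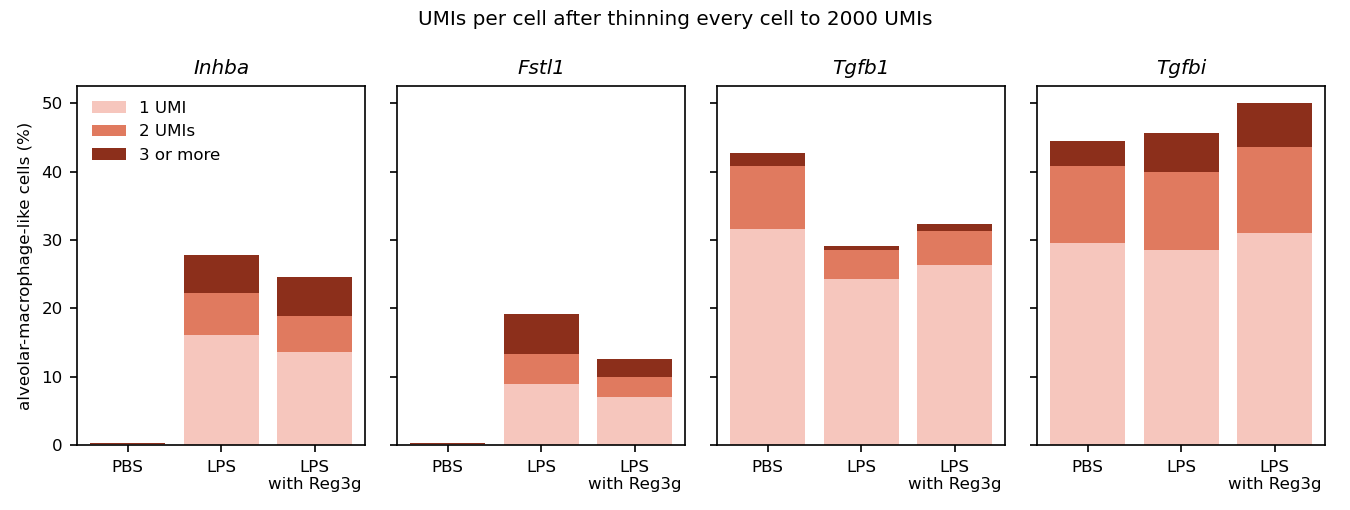
Share of alveolar-macrophage-like cells with 1, 2 and 3 or more UMIs of Inhba, Fstl1, Tgfb1 and Tgfbi after thinning every cell to 2000 UMIs; stacked bars start at 0, 1 bar per library. Inhba and Fstl1 have almost no cells with PBS, and their part with 3 or more UMIs is larger against the whole bar than that of Tgfb1, which has 0.497% such cells with LPS.

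Inhba and Fstl1 were found in partly the same cells. With LPS, Inhba was found in 35.9% (32.8 to 39.1) of 925 alveolar-macrophage-like cells with an Fstl1 UMI and in 25.9% (24.6 to 27.3) of 3904 without. With Reg3g these shares were 34.0% (29.9 to 38.3) and 23.3% (21.9 to 24.7). Within cluster 19 the shares were close, at 42.2% (38.1 to 46.3) and 41.3% (38.8 to 43.9) with LPS and 47.4% (41.6 to 53.3) and 43.5% (40.4 to 46.6) with Reg3g. In cluster 20 with LPS they were 26.1% (19.4 to 33.7) and 16.5% (14.4 to 18.7), and with Reg3g 20.5% (12.6 to 30.4) and 18.9% (16.7 to 21.3). In cluster 22 they were 22.5% (16.4 to 29.5) and 20.2% (17.5 to 23.2) with LPS, and with Reg3g the order turned, at 12.5% (7.01 to 20.1) and 19.3% (16.5 to 22.3), with intervals that overlap. Tgfbi ran against Fstl1: with LPS 35.9% (32.8 to 39.1) of cells with Fstl1 and 48.0% (46.4 to 49.5) of cells without had a Tgfbi UMI. Within cluster 19 these were 33.6% (29.8 to 37.6) and 39.0% (36.5 to 41.5). With Reg3g the shares were 42.3% (37.9 to 46.7) and 51.2% (49.5 to 52.8) over the class, but 41.9% and 42.9% within cluster 19. Cells of a library are not replicates, and these shares describe the cells of 1 library each.

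The rest of the pathway was counted over 6 lists of 87 genes. In alveolar-macrophage-like cells 42 of them reached 10 CPM in the higher library of LPS and PBS, 4 passed 2-fold upward in LPS and 13 downward, beside the background of 5.75% and 13.9%. The median log2 ratio over the 42 was -0.37, against -0.25 over all genes. With median-of-ratios scaling 5 were higher and 7 lower, and with a trimmed mean of ratios 6 and 7, so the balance depends on the scaling. Besides the members, Mmp14, a membrane protease that can release TGF-beta from its latent form, had 0.425 CPM in PBS and 109.1 CPM in LPS, a log2 ratio of 8.01 (7.20 to 8.96). Tgif1, a Smad corepressor, was at 50.8 and 101.7 CPM, a ratio just above 2-fold (log2 interval 0.91 to 1.09).

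Most of the measured pathway genes stood on the lists of targets, receptors, and signal carriers and brakes. So did most of those past 2-fold lower with LPS, beside 13.9% of all genes lower. Of 10 measured targets 5 were lower and 0 higher, with a median of -1.12. They were Id1 (log2 ratio -1.64) and Id3 (-1.60), inhibitors of helix-loop-helix factors, Klf10 (-1.47), a TGF-beta inducible factor, Bhlhe40 (-1.25) and the fibronectin gene Fn1, with 497.0 CPM in PBS and 174.3 CPM in LPS (-1.51). The targets Id2 (0.18), Junb (-0.13) and Cdkn1a (-0.08) stood near their PBS levels. Several of these genes answer other signals as well. Of 6 measured receptors and co-receptors 2 were lower, Acvrl1 (-2.02) and Tgfbr2, with a median of -0.66 over the list. Of 15 signal carriers and brakes 4 were lower, the Smad corepressors Ski (-1.38) and Skil (-1.05), the ubiquitin ligase Smurf2 (-1.04) and the BMP signal carrier Smad1 (-1.02), while Smad2 (0.06) and Smad4 (-0.15) stood near 0. The median of this list was -0.30, against -0.25 over all genes. Tgif1, on the same list, was past 2-fold higher, and others on it were higher with LPS by less. Under either scaling, Bhlhe40, Skil, Smurf2, Smad1, Tgfbr2 and Itgb5 no longer passed 2-fold.

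Of the 3 measured ligands Gdf15, a stress-induced distant family member, had 304.8 CPM in PBS and 54.8 CPM in LPS, a ratio of -2.48 (-2.55 to -2.40). Itgb5, an integrin subunit that takes part in TGF-beta activation, was at -1.16. Between LPS with Reg3g and LPS 40 pathway genes were measured. Of these 0 were 2-fold higher and 0 lower, beside 0.0419% and 0.0698% of all genes. Their median log2 ratio was 0.07 against 0.04 over all genes. In monocyte-like cells 43 were measured for LPS over PBS. Of these 3 were higher and 5 lower, beside 9.3% and 6.76% of all genes. Their median was -0.06 against 0.04 over all genes.

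**Figure D5:**
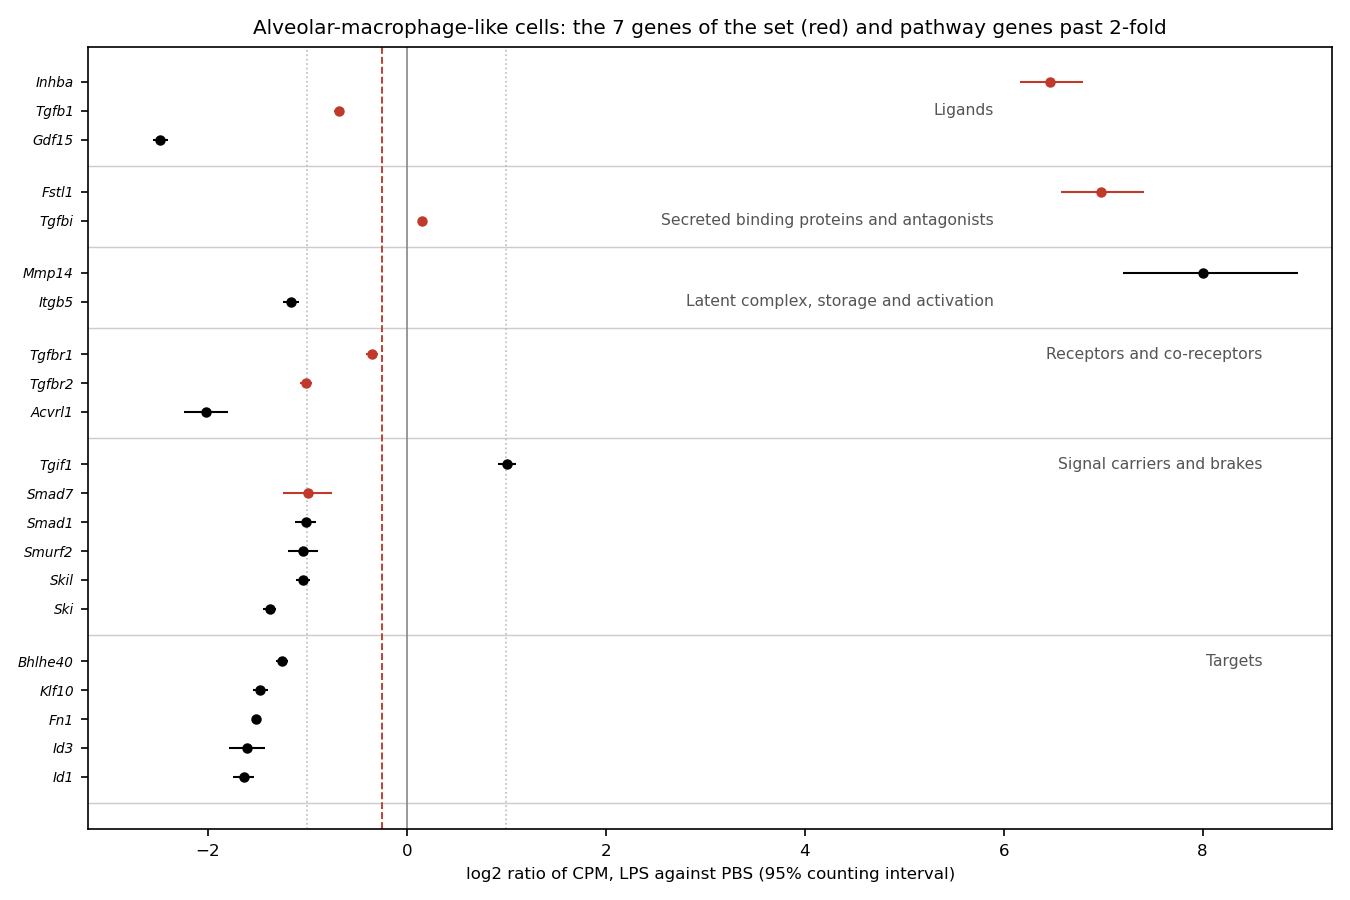
Log2 ratio of CPM, LPS against PBS, in alveolar-macrophage-like cells, for the 7 members (red) and the other pathway genes past 2-fold, grouped by list, with counting intervals; dotted lines mark 2-fold and the dashed line the median of all genes (-0.25). Mmp14, Fstl1 and Inhba lie to the right by over 6 log2 units, and the 5 targets drawn lie left of the 2-fold line.

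Genes with the most similar profile to each member were ranked by Pearson correlation of log2(CPM + 1) over the 26 class and library sums of at least 50 cells, among 5867 genes. The sums share libraries and carry-over, and the values are a description. Inhba ranked closest to Sod2 (r = 0.89), the mitochondrial superoxide dismutase, then Cfb (0.88), complement factor B, and Il1a (0.88), the cytokine interleukin 1 alpha. Fstl1 ranked closest to Cyp26b1 (0.88), a retinoic acid hydroxylase, Dcbld2 (0.85) and Emilin1 (0.81). The 3 closest to Tgfb1 included Tpd52 (0.93) and the phosphatase gene Ptpre (0.93), and Tgfbi ranked closest to Rnpep (0.95), an aminopeptidase. Tgfbr1 ranked closest to Pank3 (0.87), a pantothenate kinase, Tgfbr2 to Slc29a1 (0.88), a nucleoside transporter, and Smad7 to Mast4 (0.87). The top 3 of Inhba and of Fstl1 have no gene in common.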

How the data were processed

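Droplet single-cell RNA (10x GEM-X, 3′ ends) was measured in 3 libraries, 1 per group. The deposited matrices hold raw UMI counts per gene and barcode, which the authors made with Cell Ranger 9.0.1 and the build mm10, per the submitters' processing notes; bcl2fastq 5.0.1 and Seurat 4.4.0 are named there too. Of 55357 deposited features, 94.1% of identifiers matched GENCODE M21. Barcodes under 500 genes, under 1000 UMIs or over 15% mitochondrial UMIs were dropped, and the highest Scrublet scores (0.4% of barcodes per 1000 barcodes) were removed as doublets. Clusters came from scanpy 1.11.5 (2000 variable genes without members and pathway genes, 30 components, 15 neighbours, Leiden resolution 1). They were named X-like from 20 marker lists, with scoring limits set after the clusters were seen. Of 24 clusters 2 stayed unnamed, one for doublet scores above 0.1 and one for its leading mitochondrial or ribosomal RNA.

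For each class in each library, a gene's summed UMIs were set against all UMIs of that class (CPM), with exact Poisson, conditional binomial (ratios) and Clopper-Pearson (shares) 95% intervals. A count of 0 was set to a floor of 3 counts for ratios. The ratio computation was checked on simulated Poisson counts with set ratios. Such counts hold no variation between cells, mice or preparations, so the check does not cover it. With 1 library per group no p-value was computed. Members, lists and settings were chosen with earlier results of these data known. Named genes are all members, pathway genes past 2-fold in alveolar-macrophage-like cells (up to 10 per direction) and the 3 closest profiles per member. Smurf2, Smad1, Id2, Junb, Cdkn1a, Smad2 and Smad4 fall outside this rule and were chosen after their values were seen. A few results are not reported here. Python 3.11.15 with numpy 2.4.6, scipy 1.17.1 and pandas 2.3.3 was used.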

Additional observations from a re-analysis of the deposited data

Results flagged for a closer look

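Several classes lay on the other side of 0 from alveolar-macrophage-like cells for the same contrast. The intervals of both classes leave out 0, and the difference itself was not tested, since each group is 1 library. For LPS with Reg3g over LPS, Inhba had a log2 ratio of -0.10 in alveolar-macrophage-like cells and of 0.21 (0.05 to 0.38) in the Arg1-led cluster, 1.29 (0.10 to 2.60, on 21 and 9 UMIs) in interstitial-macrophage-like cells and 1.34 (0.59 to 2.13, on 52 and 22 UMIs) in neutrophil-like cells. The sign of the alveolar Inhba ratio depends on the weighting. It was 0.12 with clusters weighted as in the LPS library, and above 0 in clusters 19 (0.17) and 20 (0.13). Tgfb1 was at 0.15 in the alveolar class and at -0.49 (-0.82 to -0.16) in neutrophil-like cells. Tgfbi was at 0.14 in the alveolar class, at -0.058 (-0.11 to -0.0071) in the Arg1-led cluster, -0.85 (-1.09 to -0.62) in interstitial-macrophage-like cells, -0.75 (-1.42 to -0.14) in migratory dendritic-cell-like cells and -0.40 (-0.63 to -0.18) in neutrophil-like cells. Tgfbr1 was at 0.09 in the alveolar class and at -0.77 (-1.39 to -0.17) in interstitial-macrophage-like cells. For LPS over PBS, Tgfb1 was at -0.68 in the alveolar class, 0.36 (0.14 to 0.57) in type 2 dendritic-cell-like cells and 0.47 (0.02 to 0.93) in lymphoid-like cells.

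Inhba and Fstl1 were also found in the 2 clusters left unnamed. These enter the values over all kept cells and the totals behind each class's share of a gene's UMIs, and no class. In the cluster led by mitochondrial and ribosomal RNA (123, 109 and 116 cells with PBS, LPS and LPS with Reg3g) neither gene had a UMI with PBS. Inhba was at 386.7 CPM (309.3 to 477.6) with LPS and 382.7 CPM (316.8 to 458.3) with Reg3g, and Fstl1 at 98.9 CPM (62.0 to 149.8) and 87.6 CPM (57.7 to 127.4). In the cluster with high doublet scores (165 and 184 cells, none with PBS) Inhba was at 223.4 CPM (198.7 to 250.4) and 229.4 CPM (208.3 to 252.0), and Fstl1 at 221.2 CPM (196.5 to 248.0) and 174.5 CPM (156.2 to 194.4).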

How the results depend on the processing

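Up to 16 alternatives were computed for each ratio: cell filter, doublet removal, clustering, scaling, thinning, cell weighting and the class definition. Leaving out cells with a fibroblast marker, leaving out the cycling cluster and weighting clusters as in the LPS library were chosen after seeing the data. In alveolar-macrophage-like cells all 7 ratios of LPS over PBS kept their sign under all 15 alternatives. The Inhba ratio was 6.81 with trimmed mean scaling, 7.53 with cells thinned to 2000 UMIs and 6.15 over all kept cells of the library, and the Fstl1 ratio 5.70 over all kept cells. The pathway genes at least 2-fold lower with LPS numbered 7 with median-of-ratios scaling and 7 with trimmed mean scaling, against 13. For LPS with Reg3g over LPS the Inhba ratio of -0.10 was -0.054 with each library clustered alone, -0.16 with cells weighted equally, 0.068 over all kept cells and 0.12 with clusters weighted as in the LPS library, so its direction depends on the weighting. The Fstl1 ratio was -0.87 with thinned cells, -0.55 over all kept cells and -0.58 with clusters weighted, and kept its sign under all 16. Smad7 kept its sign under 15 of 16 and the other 4 under all 16. Shares of cells with a UMI moved with the thinning depth, from 17.7% to 45.8% for Inhba in alveolar-macrophage-like cells with LPS. No paired analysis was possible because each group is 1 library and none of the results comes from a test. Depth limits Inhba and Fstl1 with PBS most, where their levels rest on 85 and 49 UMIs.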
